A study of Mus musculus with 95 samples.

Results

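The immediate early response genes described here are Fos, Fosb, Jun, Junb, Egr1, Atf3, Ier2, Ier3, Dusp1 and Nr4a1, read in kidney RNA of SNF1 mice, the lupus-prone F1 cross of SWR and NZB. They were taken as the probe sets whose only gene symbol in the array annotation is 1 of these names, which gave 11 probe sets of the 45037 tested and 10 genes of 17097. Pristane, a hydrocarbon oil, was given intraperitoneally to 9-week-old females, and age-matched SNF1 mice without the injection served as controls, so that each week compares kidneys of 1 age. There were 9 pristane kidneys of week 2, 10 of week 4, 8 of week 8, 8 of week 12 and 9 of week 14. The untreated kidneys numbered 7 before any injection (week 0), 10 by week 2, 9 by week 4, 10 by week 8, 10 by week 12 and 5 by week 14. No vehicle injection is named for the untreated mice. The study ran 2 independent time courses, and the labels do not say which array belongs to which. Each of the 95 kidneys was hybridised to its own Affymetrix HT MG-430 PM array. The labels number the kidneys of a group without tying a number to a mouse. The p-values set a difference between groups against the spread between these kidneys, which are taken as independent.

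Immediate early genes are transcribed within minutes of a stimulus, without the need for new protein synthesis, from transcription factors already present in the cell, such as serum response factor with its ternary complex partners and CREB. Fos and Jun family proteins pair to form AP-1, while Egr1, Atf3 and Nr4a1 are transcription factors of the zinc finger, bZIP and nuclear receptor classes. Dusp1 is a phosphatase that switches off MAP kinases, Ier3 modulates survival signalling, and Ier2 is a nuclear protein of the same early response. In kidney these genes are known to respond to ischaemia and growth factors.

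The start regions of 4 members are shown because they carry the short core of the cAMP response element, the binding letters of CREB and of Atf family factors, beside genes that moved with week or with pristane below. RefSeq windows on mouse build GRCm38.p6 were kept for 8 of the 10 members, and none was kept for Egr1 and Ier2. The search for member windows left out 1 chromosome, so a member window there would not have been found. The count over all windows did not leave it out. The motif counts below do not cover Egr1 and Ier2, whose letters were not read. Each run holds the 250 bases before the annotated start, on the strand of the gene and 5′ to 3′, and capitals mark TGACG on either strand.
Fos, chr12:85473640-85473889, strand +: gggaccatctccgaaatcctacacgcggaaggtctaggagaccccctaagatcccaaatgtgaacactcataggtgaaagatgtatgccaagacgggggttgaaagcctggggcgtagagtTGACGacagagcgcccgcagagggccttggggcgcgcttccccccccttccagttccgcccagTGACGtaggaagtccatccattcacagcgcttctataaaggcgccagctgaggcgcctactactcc
Nr4a1, chr15:101266596-101266845, strand +: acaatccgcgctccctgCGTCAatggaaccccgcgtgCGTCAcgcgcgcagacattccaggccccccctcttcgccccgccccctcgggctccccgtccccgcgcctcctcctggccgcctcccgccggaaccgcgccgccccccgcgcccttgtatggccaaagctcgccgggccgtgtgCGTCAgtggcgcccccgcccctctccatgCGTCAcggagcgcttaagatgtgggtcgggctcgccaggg
Dusp1, chr17:26508473-26508722, strand -: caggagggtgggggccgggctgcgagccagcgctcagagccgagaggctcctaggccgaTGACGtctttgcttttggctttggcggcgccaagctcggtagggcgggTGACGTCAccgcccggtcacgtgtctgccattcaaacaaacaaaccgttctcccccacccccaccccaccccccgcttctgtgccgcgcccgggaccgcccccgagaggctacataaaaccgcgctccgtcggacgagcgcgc
Atf3, chr1:191183334-191183583, strand -: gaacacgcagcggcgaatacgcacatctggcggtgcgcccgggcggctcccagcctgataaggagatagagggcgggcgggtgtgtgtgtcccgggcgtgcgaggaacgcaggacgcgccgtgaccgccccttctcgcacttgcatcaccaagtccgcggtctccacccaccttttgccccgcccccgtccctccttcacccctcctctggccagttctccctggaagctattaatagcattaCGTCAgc
TGACG on either strand was present in 6 of the 8 member windows (Fos, Fosb, Junb, Atf3, Dusp1 and Nr4a1), against 17.8% of all 32851 windows of this length. Nr4a1 held 4 matches, Dusp1 3, Fos 2, and Fosb, Junb and Atf3 1 each. The full element TGACGTCA, which contains the core on both strands, was present in Dusp1 alone, against 1.55% of all windows. The TATA box TATAAA was present in Fos alone (12.4% of all windows). The AP-1 letters TGACTCA (4.46%) and the CArG box, the site of serum response factor (1.47%), were in none of the 8 windows. The windows of Jun and Ier3, which rose in untreated kidneys at week 2 (below), held none of these motifs. Fosb, Junb and Atf3, which held TGACG, did not pass in that comparison. A link between the motif and the changes was not tested. A match is a description of letters, and no match says only that the letters are not in this window.

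Levels are given as RMA values of the authors, on a log2 scale. Array medians ranged between 4.22 and 4.57, pairs of arrays correlated at 0.956 to 0.998, and 18.6% of values stood at the lowest level of the array, 2.21, called the floor here. Probe sets of different genes bind with different strength, so levels are compared between kidneys of 1 gene and not between genes. Fos had the widest range of the members, 5.99 on the log2 scale over the 95 kidneys, with values between 4.24 and 10.2. Jun was read by 2 probe sets, of which the brighter is used here. In 3 members many kidneys shared 1 value. Fosb stood at 2.35 in 55 kidneys and at the floor in 8, Junb at 2.79 in 39 kidneys, and Ier2 at 4.27 in 36 kidneys with a range of 0.83. The ranges of Fosb and Junb were 1.50 and 2.37. A small difference is hard to measure where so many kidneys share 1 value. Atf3 and Nr4a1 were dim as well, with means of 3.84 and 3.77 over the 95 kidneys, against a median of 4.32 over all probe sets. Nr4a1 stood at 2.75 in 14 kidneys and Atf3 at 3.60 in 9. Of the named kidney genes used as a check of the tissue, Umod, the uromodulin of the thick ascending limb, averaged 13.4 in pristane and 13.3 in untreated kidneys of week 14, and Slc12a3, the salt transporter of the distal convoluted tubule, averaged 9.75 in pristane and 10.8 in untreated kidneys, a fall that passed the test (-1.08, limma adjusted p = 0.0492).

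**Figure D1:**
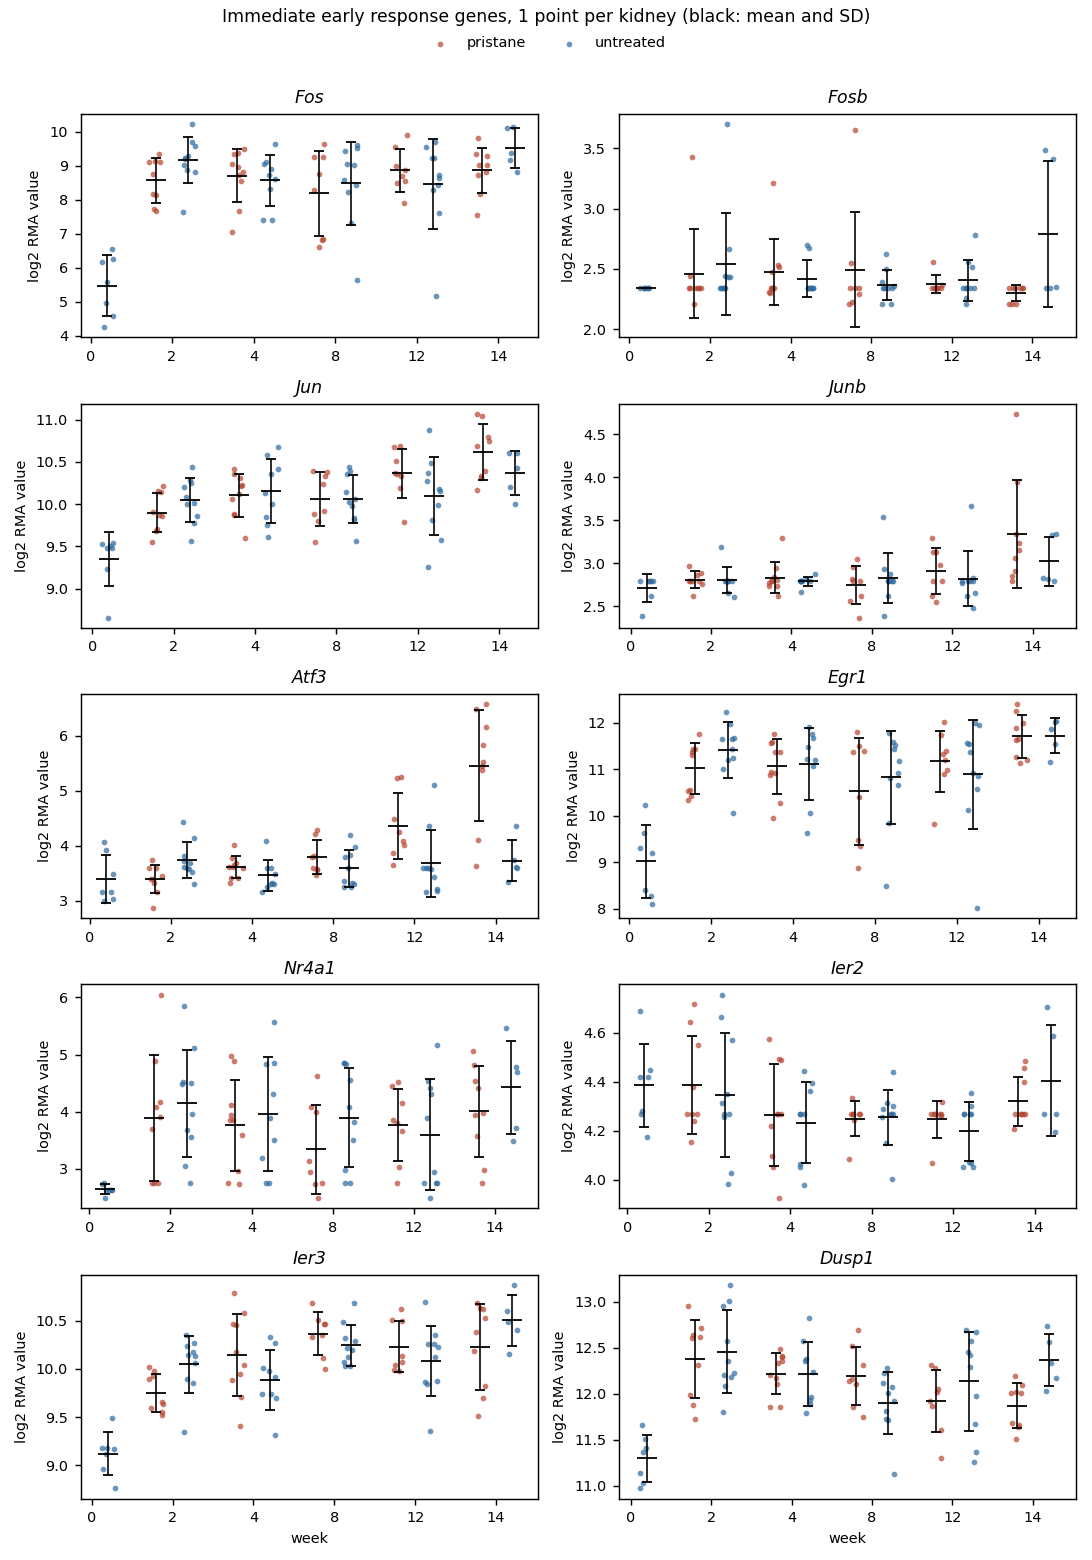
Log2 RMA values of the 10 members (y axes) by week (x axes), 1 point per kidney, with pristane kidneys in red left of untreated kidneys in blue; black bars give mean and SD. Untreated kidneys of week 0 lie low for Fos, Egr1, Ier3, Jun and Dusp1, and pristane kidneys of week 14 lie high for Atf3.

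The first comparison asks what changed in kidneys that received nothing. In untreated kidneys 6 of the 10 members rose at week 2 compared with week 0 and none fell, at an adjusted p under 0.05 in the limma fit of all untreated kidneys. Over all probe sets 16.7% were higher and 12.1% lower in this comparison, 28.8% in all, so week 0 stood apart from week 2 well beyond these genes. The median difference of the 10 members was 0.81 on the log2 scale, against 0.003 over all 17097 genes.

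Fos, the AP-1 subunit, was measured at 7.64, 9.22 and 10.23 (lowest, median and highest of 10 kidneys) at week 2, against 4.24, 5.56 and 6.55 in the 7 kidneys of week 0. The groups did not overlap. The difference was 3.69 on the log2 scale (SE 0.483, limma adjusted p = 2.47e-07), or 12.9-fold, and no other gene of the 17097 rose more. Jun, the usual partner of Fos, was measured at 9.57, 10.05 and 10.44 at week 2, against 8.66, 9.48 and 9.54 at week 0. Again the groups did not overlap, although the lowest week 2 kidney exceeded the highest week 0 kidney by little. The difference of Jun was 0.70 (SE 0.169, limma adjusted p = 0.00151), and its dimmer probe set gave 1.002 (SE 0.217, limma adjusted p = 0.000496).

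Egr1, a zinc finger factor, was measured at 10.07, 11.54 and 12.23 at week 2, against 8.11, 9.19 and 10.23 at week 0. All but 1 of the 10 kidneys of week 2 lay above every kidney of week 0. The difference was 2.39 (SE 0.422, limma adjusted p = 3.58e-05), or 5.25-fold, and only 1 of the 17097 genes, Fos, rose more. Nr4a1, an orphan nuclear receptor, was measured at 2.75, 4.22 and 5.85 at week 2, against 2.49, 2.63 and 2.75 at week 0. The week 0 values lay near the floor and 4 of the 7 kidneys shared 2.63, so that their SD of 0.0869 is that of values near background, against 0.942 at week 2 (n = 10), and the difference may understate the change. Of the 10 kidneys of week 2, 9 lay above all of week 0. The difference was 1.50 (SE 0.424, limma adjusted p = 0.00631), which did not pass when each group had its own weight for spread (adjusted p = 0.0763).

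Dusp1, the phosphatase of MAP kinases, was measured at 11.81, 12.29 and 13.18 at week 2, against 10.97, 11.36 and 11.66 at week 0, with no overlap. The difference was 1.16 (SE 0.195, limma adjusted p = 1.68e-05), or 2.24-fold. Ier3 was measured at 9.34, 10.14 and 10.35 at week 2, against 8.76, 9.17 and 9.50 at week 0, and 1 kidney of week 2 lay within the range of week 0. Its difference was 0.92 (SE 0.140, limma adjusted p = 3.44e-06), or 1.90-fold. Of all 17097 genes, 38 rose more than Dusp1 and 114 more than Ier3. The remaining 4 members did not pass, with differences of 0.34 for Atf3, 0.20 for Fosb, 0.09 for Junb and -0.04 for Ier2 (limma adjusted p between 0.217 and 0.837).

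**Figure D2:**
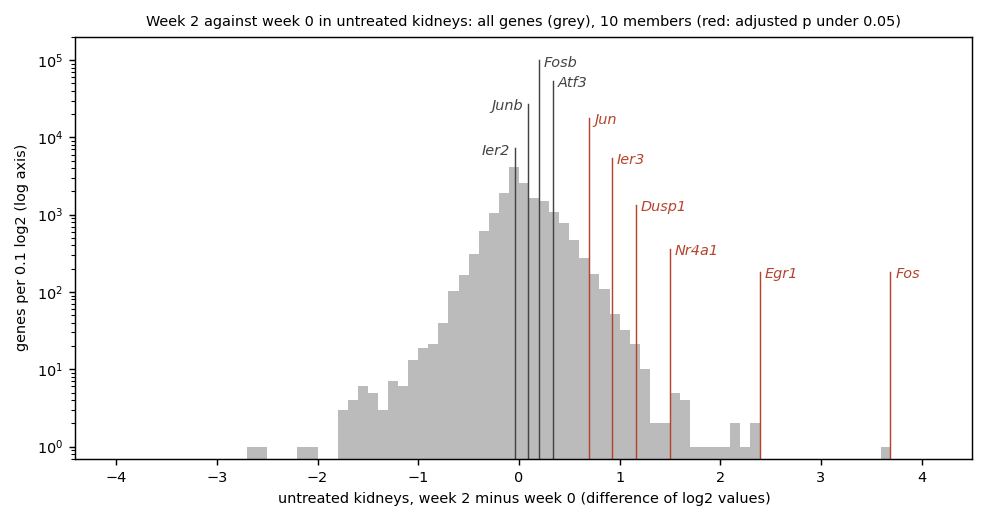
Distribution over 17097 genes of the difference between untreated kidneys of week 2 and week 0 (x axis, log2; y axis, number of genes per bin on a log axis), with the 10 members as labelled lines, in red where the adjusted p was under 0.05. Fos at 3.69 and Egr1 at 2.39 lie at the right end, and Ier2, Junb, Fosb and Atf3 lie within the bulk.

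Over weeks 0 to 14 the moderated F test of limma called the same 6 members, Ier3 (adjusted p = 9.16e-08), Fos (8.31e-07), Dusp1 (0.000156), Egr1 (0.000162), Jun (0.000764) and Nr4a1 (0.0293), where 32.9% of all probe sets passed. Without the kidneys of week 0, an alternative chosen after seeing the data, the test over weeks 2 to 14 called 0 of 10 (1 at unadjusted p under 0.05; 10.8% of all probe sets passed), and the smallest limma adjusted p was 0.0553, for Ier3. Between neighbouring weeks after week 2 none of the 10 members passed limma's test in untreated kidneys: week 4 against week 2 (0 at unadjusted p under 0.05; 0.02% of probe sets passed), week 8 against week 4 (1; 0.135%), week 12 against week 8 (0; 0.00888%) and week 14 against week 12 (3; 0.708%). In the last of these all 10 differences were positive, between 0.04 and 1.06, with Fos at 1.06 (SE 0.537, limma adjusted p = 0.321). Untreated kidneys of week 14 gave the highest group mean of Fos (9.52 ± 0.585, SD, n = 5), Egr1 (11.7 ± 0.379) and Ier3 (10.5 ± 0.262). The same held for Nr4a1 (4.43 ± 0.812), Fosb (2.79 ± 0.605) and Ier2 (4.40 ± 0.227). None of these members passed the test against week 12. These 5 kidneys are also the reference of the pristane differences at week 14.

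Set against the 7 untreated kidneys of week 0, all 10 later groups stood on the same side for most members. These contrasts were added after seeing the data, come from 1 fit of all groups and share the week 0 kidneys, so they are not independent of each other. Fos, Egr1, Jun, Ier3 and Dusp1 were higher in 10 of 10 later groups, with log2 differences between 2.71 and 4.05 for Fos, 1.50 and 2.70 for Egr1, 0.55 and 1.27 for Jun, 0.63 and 1.38 for Ier3, and 0.57 and 1.16 for Dusp1. Nr4a1 was higher in 8 of 10 groups, all but pristane week 8 and untreated week 12. Atf3 was higher in pristane week 12 and pristane week 14 alone, Junb in pristane week 14 alone, Fosb in untreated week 14 alone, and Ier2 in none. Of all probe sets, 17.2%, 17.4%, 14.1%, 13.3% and 17.8% were higher in the 5 pristane groups in week order, and 17.2%, 17.5%, 12.1%, 8.58% and 12.9% in the 5 later untreated groups. Of the 88 later kidneys, 86 had more Fos than the highest kidney of week 0, 87 had more Jun, 84 more Ier3, 81 more Dusp1 and 76 more Egr1.

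The labels give no time of day, no order of dissection and no date, and the week 0 mice were also the youngest. Age, collection and array handling cannot be told apart in this comparison. Other measured groups moved beside the members, in a comparison where 16.7% of all probe sets were higher and 12.1% lower. Of 16 measured clock genes, whose RNA follows the time of day, 10 rose and 4 fell at week 2 against week 0, with Nr1d2 higher by 1.03, Per3 higher by 1.96 and Npas2 lower by 1.75 (limma adjusted p = 1.15e-14, 8.07e-11 and 1.86e-09). Of 9 glucocorticoid response genes 6 rose, among them Klf9 by 0.54, Zbtb16 by 0.65 and Fkbp5 by 0.62. Of 11 macrophage and monocyte markers 0 passed (limma adjusted p over 0.05 for each), and their mean level ranged between 4.55 and 4.85 at week 2 and between 4.49 and 4.74 at week 0. Of 12 adrenal markers 0 passed, with mean levels between 3.51 and 8.01 at week 2 and between 3.56 and 5.20 at week 0. Markers of tubule segments were higher at week 2, 4 of 6 for the proximal tubule (Slc22a8 by 0.37), 2 of 6 for the collecting duct (the water channel Aqp3 by 0.73, limma adjusted p = 2.91e-05) and 2 of 5 for loop and distal tubule (Slc12a3 by 0.35), and none of these were lower. Lower were 2 of 7 fibroblast and smooth muscle markers (Myh11 by 0.51, limma adjusted p = 0.000159), 1 of 8 T and B cell markers (Cd79a), 1 of 6 neutrophil markers (S100a9), 1 of 6 endothelial markers (Kdr) and 1 of 6 tubular injury genes (Sox9), and none of these were higher. The 5 podocyte and 6 fat markers did not pass. In lists this short, counts of 1 or 2 are not read as a shift of a cell type. The part of clock time, glucocorticoid, attached tissue or these cell types in the differences of the members was not tested.

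The other genes of the same response, a list of 47 measured genes (the members left out), was set beside them. At week 2 against week 0 in untreated kidneys 13 rose, 3 fell and 31 did not pass, with a median of 0.22 on the log2 scale, while 19.6% of all genes were higher and 11.5% lower. Ccn1, a matricellular protein induced by serum, rose by 2.12 (SE 0.305, limma adjusted p = 1.41e-06) and Dusp6, the phosphatase of ERK, by 0.69 (SE 0.115, limma adjusted p = 1.62e-05). Klf10 differed by -0.07 and did not pass. Outside the naming rule, and picked after their values were seen, Gadd45g (2.01), Id1 (1.18) and Btg2 (1.15) were the next largest rises, and the falls were Dusp2 (-0.53), Egr4 (-0.35) and Nr4a2 (-0.29). Nr4a1 and Nr4a2, both orphan receptors of 1 family, moved in opposite directions in these kidneys. Of 21 measured kinases and factors upstream of the response 8 rose and 1 fell, with Braf, the kinase above MEK, higher by 1.08, Crebbp, the coactivator of CREB, higher by 0.74, and Crem, a modulator of cAMP response, lower by 0.64 (limma adjusted p = 1.15e-08, 0.000144 and 0.000191). Of 9 heat shock genes 2 rose and 0 fell, with Hspe1 higher by 0.22, while Hspa8 differed by -0.01 and Hsp90aa1 by 0.22 without passing.

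The second comparison asks what pristane added at each week. No member was called between pristane and untreated kidneys of the same week at weeks 2, 4, 8 and 12 by limma's test of those 2 groups (2, 0, 0 and 1 members at unadjusted p under 0.05), and few probe sets of the whole array were, 0.249%, 0.138%, 0.0866% and 0.0244%. The largest difference at week 2 was that of Fos, -0.59 (SE 0.303, limma adjusted p = 0.747), and at week 12 that of Atf3, 0.67 (SE 0.282, limma adjusted p = 0.781). At week 14, when 8.31% of all probe sets passed, Atf3 was higher and Dusp1 lower in pristane kidneys, and the other 8 members did not pass. Among all probe sets 4.57% were higher and 3.73% lower, and the median difference of the members was -0.18.

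**Figure D3:**
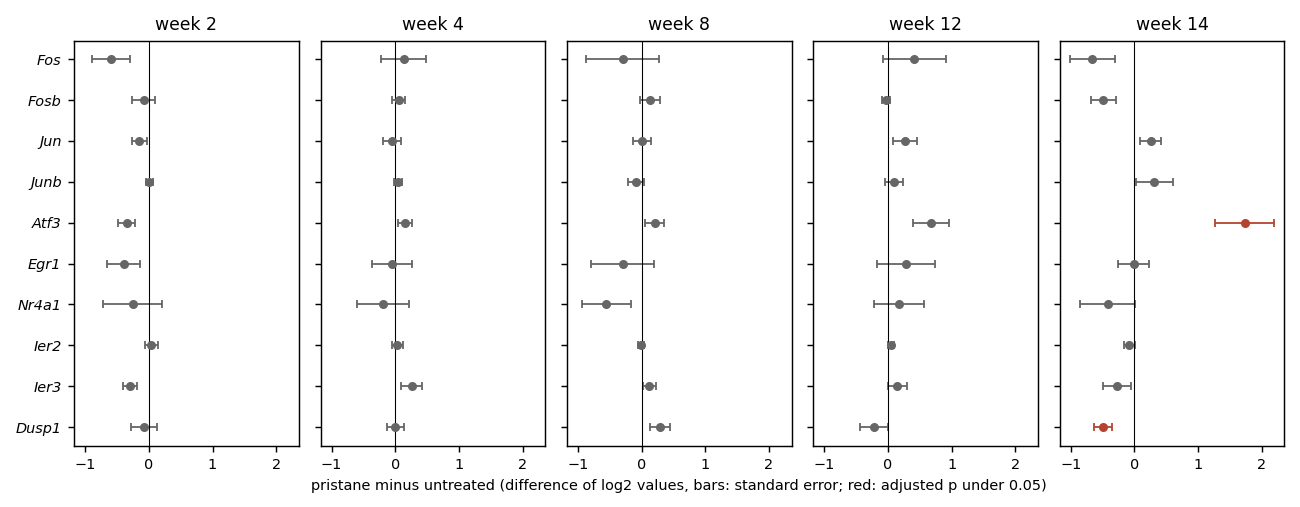
Difference between pristane and untreated kidneys of the same week (x axes, log2) for the 10 members, 1 panel per week, with the standard error as a bar and red where the adjusted p was under 0.05. At week 14 Atf3 lies at 1.73 and Dusp1 at -0.50, and no member is red at weeks 2 to 12.

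Atf3, a bZIP repressor and activator induced by cell stress, was measured in the 9 pristane kidneys of week 14 at 3.63, 5.52 and 6.57 (lowest, median and highest). The 5 untreated kidneys of week 14 had 3.35, 3.60, 3.61, 3.74 and 4.35. In 7 of 9 pristane kidneys Atf3 lay above every untreated kidney, and kidneys 1 and 2, at 4.10 and 3.63, lay within the untreated range. The means were 5.46 ± 1.01 in pristane kidneys (SD, n = 9) and 3.73 ± 0.375 in untreated kidneys (SD, n = 5), a difference of 1.73 (SE 0.465, limma adjusted p = 0.0421) or 3.31-fold. The adjusted p lay near the threshold and depended on single kidneys. It was between 0.0749 and 0.107 without any 1 of untreated kidneys 1 to 5 and between 0.0568 and 0.0745 without any 1 of pristane kidneys 3 to 9, and it passed in the 2 remaining fits, without pristane kidney 1 or 2 (lowest adjusted p = 0.00581). The difference itself stayed between 1.59 and 1.96 in all 14 fits.

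The means of Atf3 in pristane kidneys were 3.39 ± 0.259 (week 2), 3.61 ± 0.199 (week 4), 3.79 ± 0.310 (week 8), 4.35 ± 0.599 (week 12) and 5.46 ± 1.01 (week 14). In untreated kidneys they were 3.40 ± 0.434 at week 0 and then 3.74 ± 0.323, 3.46 ± 0.282, 3.59 ± 0.342, 3.68 ± 0.610 and 3.73 ± 0.375 in the order of the same weeks. The F test over pristane weeks gave Atf3 an adjusted p = 1.16e-07, and that over untreated weeks 0.602 (limma). Its week pattern differed between pristane and untreated kidneys in the interaction test of all groups (limma adjusted p = 8.88e-05), the only member to pass, where 12.3% of all probe sets did. Pristane kidneys of week 14 exceeded those of week 12 by 1.10 (SE 0.270, limma adjusted p = 0.00301; 17.1% of probe sets passed in either direction). No member passed in the earlier pristane steps (0.0244%, 0.00666% and 0.562% of probe sets passed; 1, 0 and 2 members at unadjusted p under 0.05 in limma). The last step was larger than the step of untreated kidneys by 1.06 (SE 0.355, limma adjusted p = 0.0374; 11% of probe sets passed, against 0.0444%, 0.00888% and 0% for the earlier steps, in which no member passed), a call that was gone when any 1 of 15 kidneys, of the 95, was omitted. Without the kidneys of week 14 the interaction test called 0 of 10 members.

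Markers of other cell states moved with Atf3, at a week when 4.57% of all probe sets were higher and 3.73% lower. Of 11 macrophage and monocyte markers 9 were higher in pristane kidneys of week 14 and 0 lower, and their mean level ranged between 6.58 and 8.28 in pristane kidneys and between 4.99 and 5.52 in untreated kidneys. Of 6 tubular injury genes 4 were higher and 0 lower, with mean levels between 5.72 and 9.45 in pristane kidneys and between 5.25 and 5.63 in untreated kidneys. Pristane kidneys 1 and 2, the lowest for Atf3, were also the lowest of the 9 for both lists, at 6.58 and 6.58 for the macrophage list and 6.81 and 5.72 for the injury list. Havcr1, the kidney injury molecule, was higher by 4.79 (limma adjusted p = 0.0153). The 12 adrenal markers had mean levels of 6.34, 5.61 and 5.04 in pristane kidneys 4, 5 and 6, and between 3.35 and 3.63 in the other 6 pristane and the 5 untreated kidneys, and 0 of the 12 passed. With their mean as a covariate the difference of Atf3 was 1.48 (limma adjusted p = 0.128). In whole-kidney RNA more cells of a type and more RNA per cell cannot be told apart, and the part of the macrophage and injury markers in the Atf3 difference was not tested. Among the untreated kidneys, kidney 10 of week 12 had the highest Atf3, 5.11, and a macrophage list level of 8.20 and an injury list level of 7.52, each the highest of the untreated kidneys of that week.

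Dusp1 in the 9 pristane kidneys of week 14 was measured at 11.50, 12.01 and 12.19 (lowest, median and highest), against 12.03, 12.18, 12.34, 12.56 and 12.74 in the 5 untreated kidneys. The groups overlapped by little, and 7 of 9 pristane kidneys lay below every untreated one. The difference was -0.50 (SE 0.141, limma adjusted p = 0.0488). It passed without untreated kidney 1 and without pristane kidney 2 (lowest adjusted p = 0.0219) and in none of the other 12 fits that left out 1 kidney, where the adjusted p lay between 0.0517 and 0.133. With the adrenal markers as a covariate the difference was -0.51 (limma adjusted p = 0.116). Some markers of kidney cell types fell beside Dusp1 in pristane kidneys of week 14, 1 of 6 for the proximal tubule (Slc5a2, -1.12), 2 of 5 for loop and distal tubule (Slc12a3, -1.08, and Calb1), 1 of 6 for the collecting duct (Slc4a1), 1 of 6 for endothelium (Kdr, -0.67) and 1 of 6 for fat (Pck1, -1.02), with Calb1 and Slc4a1 named after their values were seen. None of these lists had a higher marker. Over all probe sets 3.73% were lower and 4.57% higher at week 14. In lists this short, counts of 1 or 2 are not read as a shift of a cell type. The part of these markers in the Dusp1 difference was not tested. The week pattern of Dusp1 did not pass the interaction test (limma adjusted p = 0.234). In pristane kidneys alone Dusp1 changed over weeks (F test, limma adjusted p = 0.0216), with means of 12.38 ± 0.426, 12.22 ± 0.223, 12.19 ± 0.316, 11.92 ± 0.337 and 11.87 ± 0.244 in week order.

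Over the pristane weeks the F test called 5 members, Atf3, Jun, Junb, Ier3 and Dusp1, where 33.9% of all probe sets passed, and without week 14 it called 2, Atf3 and Ier3. Jun in pristane kidneys averaged 9.90 ± 0.232, 10.11 ± 0.254, 10.06 ± 0.318, 10.37 ± 0.288 and 10.62 ± 0.329 in week order, 2 to 14 (limma adjusted p = 0.000208). At week 14 Jun was measured at 10.17, 10.69 and 11.07 in pristane kidneys, against 9.996, 10.21, 10.42, 10.60 and 10.61 in untreated kidneys, and the difference of 0.25 (SE 0.169) did not pass. Ier3 averaged 9.75 ± 0.196 in pristane kidneys at week 2 and between 10.1 and 10.4 at the later pristane weeks (limma adjusted p = 0.0206). Junb averaged 3.33 ± 0.629 in pristane kidneys of week 14, where kidneys 3 and 9 had 4.74 and 3.94, the highest values of all 95 kidneys, and the other 7 lay between 2.79 and 3.34 (F test, limma adjusted p = 0.0157). Its untreated kidneys of week 14 had 2.79, 2.81, 2.83, 3.32 and 3.35. Without pristane kidney 9 of week 14 the F test called 4 members, and Junb was not among them.

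Fosb, a relative of Fos, lay at 2.35 or at the floor in all 9 pristane kidneys of week 14, while untreated kidneys 3 and 4 had 3.49 and 3.41 and the other 3 had 2.35. The difference of -0.49 did not pass in the fit of the 2 groups (limma adjusted p = 0.138) and passed in the fit of all 11 groups (limma adjusted p = 0.0188). Fos was measured at 7.56, 9.01 and 9.81 in pristane kidneys of week 14, against 8.82, 9.16, 9.36, 10.11 and 10.14 in untreated kidneys, with a difference of -0.66 (SE 0.350, limma adjusted p = 0.292). Egr1 averaged 11.7 in both groups of week 14 and differed by -0.02 (SE 0.238). Nr4a1 was measured at 2.75, 3.99 and 5.06 in pristane kidneys, against 3.49, 3.72, 4.69, 4.78 and 5.46 in untreated kidneys, with a difference of -0.42 (SE 0.437).

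Of the 47 other genes of the response, 8 were higher and 1 lower in pristane kidneys of week 14, with a median of 0.21, while 6.97% of all genes were higher and 4.80% lower. The higher genes, named after their values were seen, were Egr2 (3.03), Nfkbiz (1.88), Myc (1.62), Socs3 (1.39), Klf6 (1.13), Nr4a3 (0.94), Nfkbia (0.71) and Maff (0.58), and Id1 was lower by 1.19. Egr2 differed by 0.36 between untreated kidneys of week 2 and week 0 without passing, where Egr1 rose by 2.39, and Egr1 did not pass at week 14, where Egr2 rose. The difference between these 2 genes was not tested. Among the 21 upstream genes 2 were higher, Elk3 and Mrtfb, and 3 lower, Prkaca, Braf and Mapk14, of which all but Braf were named after their values were seen.

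Within groups the members varied together from kidney to kidney. After each group mean was subtracted, Fos and Egr1 correlated at r = 0.960 over the 95 kidneys (0.945 without the 2 kidneys farthest from the median of Fos), Jun and Egr1 at 0.793, Jun and Nr4a1 at 0.770 and Fos and Jun at 0.756. All 45 pairs were positive, between 0.128 and 0.960 with a median of 0.397, and 14 pairs lay above 0.5. Atf3 followed Fos less closely (r = 0.349). The points of 1 plot share an array and its normalisation, so these values are a description. The same counts were not made for pairs of other genes, so they are not read as particular to the members. The 2 kidneys farthest from the rest were kidney 6 of untreated week 12, with Fos at 5.18 and Egr1 at 8.02, and kidney 6 of untreated week 8, with Fos at 5.63 and Egr1 at 8.49. These are the 2 later kidneys in which Fos lay within the range of week 0. After week 0 the number in a kidney's label moved with the members. The kidneys numbered 1 to 5 and those numbered 6 to 10 of each group after week 0, a split chosen after seeing the data, gave 19 sets, and the first number of the set had the lowest mean of the 10 members in 18 of them. In all 19 the last number had a higher mean than the first. In untreated week 12, for example, the mean was 6.64 in kidney 1 and 7.34 in kidney 5, and 5.86 in kidney 6 and 7.67 in kidney 10. In week 0, outside these sets, kidney 1 had 6.05 and kidney 5 had 5.75, the lowest of that group. There kidney 6 had 5.79 and kidney 7 had 6.24. The sources used here do not say what the numbers stand for. Their part in these correlations, in the spread within groups and in the calls of week 14 was not tested. In a fit with the number as a block, neither Atf3 nor Dusp1 passed at week 14 (limma adjusted p = 0.324 and 0.344). The untreated kidneys of week 14 carry only numbers 1 to 5. The differences of that fit therefore rest on kidneys numbered 1 to 5 of both groups. It cannot tell a part of the number from the smaller count of kidneys.

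**Figure D4:**
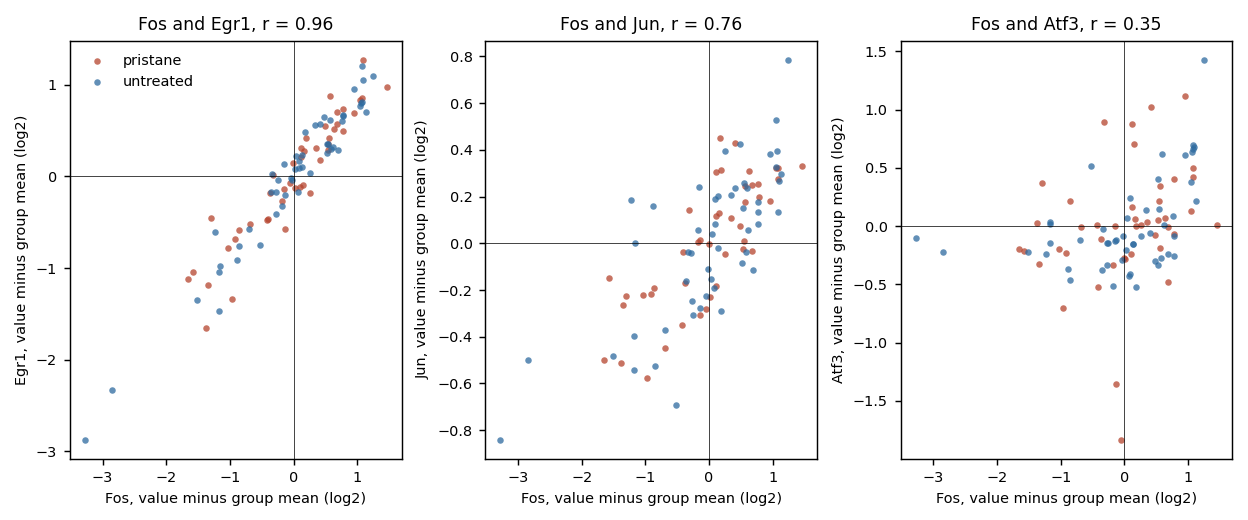
Each kidney's Fos value minus its group mean (x axes, log2) against the same for Egr1, Jun and Atf3 (y axes, log2), with pristane kidneys in red and untreated kidneys in blue. The points of Fos and Egr1 lie near 1 line (r = 0.960), with 2 untreated kidneys at the lower left, and those of Fos and Atf3 scatter (r = 0.349).

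The 10 genes outside the members whose within-group pattern was most like the mean of the members were Btg2 (r = 0.889), Ccn1 (0.849), Apold1 (0.657), Egr2 (0.639), Ccn2 (0.579), Gem (0.515), Eri1 (0.472), Vmp1 (0.460), Cxcl1 (0.458) and Vcam1 (0.457), over 95 kidneys. Btg2, Ccn1, Egr2, Ccn2, Gem and Vcam1 were on the gene lists used here. Btg2 and Ccn1 rose at week 2 against week 0 in untreated kidneys, by 1.15 and 2.12, whereas Apold1 (-0.01), Cxcl1 (-0.03) and Vcam1 (-0.18) did not pass. Of the 10, Egr2, Vmp1, Cxcl1 and Vcam1 were higher in pristane kidneys of week 14, by 3.03, 1.22, 3.01 and 2.10 (limma adjusted p = 0.0141, 0.0179, 0.0316 and 0.0261).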

How the data were processed

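Kidney RNA from SNF1 mice was hybridised to 95 Affymetrix arrays (HT MG-430 PM). The deposited values are log2 signals that the authors made with RMA, and the labels also name Partek. RMA sets probes of all arrays to 1 distribution, which hides a shift shared by most genes, and its low end gives the floor and the repeated values of dim probe sets. All 95 columns were matched to samples by title. Control probe sets (104) were left out, and 45037 were tested with limma 3.58.1 in R 4.3.3 (lmFit and eBayes) with Benjamini-Hochberg adjustment over all of them and a threshold of 0.05. Each week's pristane and untreated kidneys were fitted alone. The F tests and steps over weeks used all untreated or all pristane kidneys, and the interaction tests all 11 groups. Array depth has no count, so the number of kidneys limits the precision. Genes were named from the platform annotation, in which 28898 of 29449 probe sets have 1 symbol and 551 several, and the brightest probe set stood for its gene.

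All members were described. Of each other gene list up to 3 genes were named, those with the smallest p of the untreated F test, and the 10 genes most like the mean of the members. Others are marked as chosen after their values were seen. The members and lists were chosen with earlier results of these data known. Of 207 genes on the 17 other lists 182 were measured here. Some of the fits were also run on simulated data, drawn independently for each probe set and kidney. Such data hold no variation shared between genes, so they cannot show how the fits behave with it. Alternatives were another centring, quantile normalisation, a filter at the 40th percentile, trended and robust eBayes, group weights, the replicate number as a block, a threshold of 0.01, probe set means, adrenal markers as a covariate, 1 fit of all groups and each kidney left out. Fits without week 0 or week 14, and the contrasts of later groups with week 0, were added after seeing the data. After group means were subtracted, same-numbered kidneys of different groups were correlated over 5000 probe sets. Every such r lay above 0.1 in 1 of 14 pairs of groups, and single values ran between -0.637 and 0.609. Numbers were therefore not taken as pairs, although the members themselves moved with the numbers after week 0.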

Additional observations from a re-analysis of the deposited data

Results flagged for a closer look

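The 10 members in 11 groups gave 110 sets of values, of which 19 had 1 kidney far from the others by Dixon's test, where chance gives about 5%. A kidney can stand apart for more than 1 member, and 13 of the 19 were in Fosb, Junb or Ier2, in which many kidneys share 1 value. Kidney 6 of untreated week 12 lay low for Fos (5.18) and Egr1 (8.02), and kidney 6 of untreated week 8 low for Dusp1 (11.1). Kidney 9 of untreated week 4 lay high for Atf3 (4.09), kidney 7 of untreated week 2 low for Ier3 (9.34), and kidney 6 of untreated week 0 low for both Jun (8.66) and Junb (2.38).

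Fosb lay high in 1 kidney of 5 groups, kidney 4 of pristane week 2 (3.43), kidney 5 of pristane week 4 (3.21), kidney 5 of pristane week 8 (3.65), kidney 8 of pristane week 12 (2.56) and kidney 10 of untreated week 2 (3.70). Junb lay high in kidney 5 of pristane week 4 (3.29), kidney 9 of untreated week 2 (3.18), kidney 3 of untreated week 8 (3.54) and kidney 10 of untreated week 12 (3.67), and low in kidney 5 of untreated week 4 (2.67). Ier2 lay low in kidney 8 of pristane week 8 (4.09) and kidney 3 of pristane week 12 (4.07).

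The week pattern of Atf3 differed between pristane and untreated kidneys (interaction F test, limma adjusted p = 8.88e-05), and its step between weeks 12 and 14 was larger by 1.06 on the log2 scale in pristane kidneys.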

How the results depend on the processing

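The differences followed through the alternatives did not change direction. They were the 6 rises at week 2 and the differences of Atf3, Dusp1, Fos and Fosb at week 14. The last pristane step of Atf3 and Junb, and that of Atf3 against untreated kidneys, were followed too. Other differences were not followed, and counts of calls have no direction. The 6 rises at week 2 against week 0 in untreated kidneys held in each fit that left out 1 kidney (6 in all), and no call was made between pristane and untreated kidneys at weeks 2 to 12 when a kidney was left out (0 in all). The 2 calls of week 14 were the least firm. They fell to 0 with the replicate number as a block (limma, Atf3 1.50, adjusted p = 0.324, and Dusp1 -0.45, adjusted p = 0.344), which changed no other count by over 1.5 times. At week 14 that block leaves only kidneys numbered 1 to 5 for the difference, because the untreated kidneys carry no higher number. The 2 calls also fell to 0 with adrenal markers as a covariate, to 1 with trended and robust eBayes (Dusp1, adjusted p = 0.0506), and to between 0 and 2 when 1 kidney was left out. A threshold of 0.01 left 0, which follows from the adjusted p of the main fit. In 1 fit of all groups there were again 2 calls, Atf3 and Fosb, without Dusp1 (adjusted p = 0.0686).

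Over untreated weeks the F test called 5 to 6 members when 1 kidney was left out (Nr4a1 was lost without kidney 1, 2, 4 or 5 of week 0), and without week 0 both the F test and the steps called 0. Over pristane weeks it called 4 to 6 with 1 kidney left out, 2 at a threshold of 0.01 (Atf3 and Jun) and 2 without week 14 (Atf3 and Ier3). The pristane steps gave 2 calls, with Junb added, after centring, with probe set means and in 1 fit of all groups, 0 without week 14, and 1 to 2 with 1 kidney left out (Junb was added without kidney 7 of pristane week 12 or kidney 1, 5 or 7 of pristane week 14, adjusted p between 0.0288 and 0.0410). The interaction F test gave 1 call in each fit with 1 kidney left out and 0 without week 14. The difference of steps between pristane and untreated kidneys gave 0 at a threshold of 0.01, which follows from its adjusted p in the main fit. With the adrenal covariate it gave 0 (Atf3 1.003, limma adjusted p = 0.0570), without week 14 it gave 0, and with 1 kidney left out 0 to 1. It was lost in 15 of 95 such fits (adjusted p up to 0.0952), without untreated week 12 kidney 5 or 10, pristane week 12 kidney 1, 3, 5, 6 or 8, untreated week 14 kidney 1, 2, 3 or 5, or pristane week 14 kidney 3, 4, 6 or 7. The causes were not tested. Signal near the floor limits Fosb, Junb and Nr4a1, the last at week 0 and in later kidneys down to 2.49, and repeated values limit Ier2. Atf3 was dim outside pristane week 14, with no other group mean above the 4.35 of pristane week 12.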
